A study of Mus musculus with 12 samples.

Results

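Mitochondria make a small set of respiratory chain proteins on ribosomes of their own. All other parts of that chain, and every protein of the mitochondrial ribosome, are coded in the nucleus, translated in the cytosol and brought in through the TOM and TIM translocases of the outer and inner membranes. NRF1, nuclear respiratory factor 1, is a DNA-binding activator of many of these nuclear genes. Splicing of this gene set in newly made RNA was compared between embryonic stem cells of mouse after acute loss of METTL3, the catalytic subunit that deposits N6-methyladenosine (m6A) on RNA, and the same cells untreated.

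The members were splicing clusters, groups of introns that share a splice site. A cluster was taken where it was tested and carried the name Nrf1 or a name starting with Mrpl or Mrps (large and small mitoribosomal subunits), Nduf, Sdh, Uqcr or Cox (complexes I to IV), Atp5 (ATP synthase), or Timm or Tomm (import). This gave 102 of 7263 tested clusters, with 270 of 20437 introns, from 85 of 4273 genes. The mitoribosome supplied 35 clusters, the respiratory chain and ATP synthase 48, import 16 and Nrf1 3. Another 10 clusters with such a name were not tested, mostly for too few valid samples. Timmdc1, which carries an import-like name, works in complex I assembly and was counted with the Nduf genes.

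Both groups were female 129S x Cast embryonic stem cells in which FKBP12(F36V), a degradation tag, was fused to the C-terminus of Mettl3, with doxycycline-inducible Xist. The dTAG group (6 samples) had 3 h of dTAG-13, the small molecule that sends the tagged protein to degradation, and the Ctrl group (6 samples) had none. Every sample was then labelled for 30 min with 4-thiouridine (4sU), and the labelled RNA was sequenced. In both groups the clones C3 and H5 gave 3 samples each, so the results rest on 2 clonal lines, and all cells grew on inactivated fibroblast feeders. Since dTAG-13 removes METTL3 protein and not its RNA, the level of Mettl3 RNA could not check the labels. No other check of the labels was made here.

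The deposited tables give, for each intron, its fitted share of its cluster's split reads in each group (PSI, percent spliced in, here a fraction), and for each cluster a likelihood ratio test of split read counts between the groups, with its p from the chi-square distribution. A PSI is a group value with no error and no value per sample, the number of reads behind it is unknown, and the spread between samples enters only through the cluster's p-value. In RNA from many cells, fewer cells with a splice form and less of that form per cell cannot be told apart. DeltaPSI is PSI in dTAG minus PSI in Ctrl. Adjusted p-values are Benjamini-Hochberg values over all 7263 tested clusters.

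Few clusters of the mitochondrial gene set, as of all tested clusters, differed between dTAG and Ctrl cells past the adjusted thresholds. Of the 102 clusters, 2 (1.96%) had an adjusted p under 0.05, against 51 clusters or 0.702% of all tested. They were the choice among 4 late acceptors of Nrf1 and an alternative ending of Mrpl15. No further member passed an adjusted p of 0.2, where 115 clusters or 1.58% of all did. At an unadjusted p of at most 0.05 there were 5 member clusters, 4.9% of the members against 6.84% of all tested clusters, from Nrf1, Mrpl15, Mrpl21, Ndufa12 and Mrpl30. The order of these shares depended on the threshold. At p of at most 0.01 there were 4 members, 3.92% against 2.67% of all, and at p under 0.1, a threshold added after the values were seen, 18 members, 17.6% against 11.9% of all, 13 of them between 0.05 and 0.1. By gene, 5 of 85, or 5.88%, had a cluster with p of at most 0.05, against 11.2% of all genes. Here a gene counts if any of its clusters passes. Fewer clusters per gene were tested among the members, 102 for 85 genes, against 7263 for 4273 genes in all. A member gene thus had fewer chances to pass. A largest absolute deltaPSI of at least 0.1 was seen in 5 member clusters, 4.9% of the members against 4.63% of all, and one of at least 0.05 in 18, 17.6% of the members against 19.8% of all. The median of that largest deltaPSI was 0.0150 over the members and 0.0214 over all tested clusters, and it was under 0.01 in 40.2% of the members and in 27.2% of all. The largest is taken over the introns of a cluster, of which the members had a median of 2 and all tested clusters 3.

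**Figure D1:**
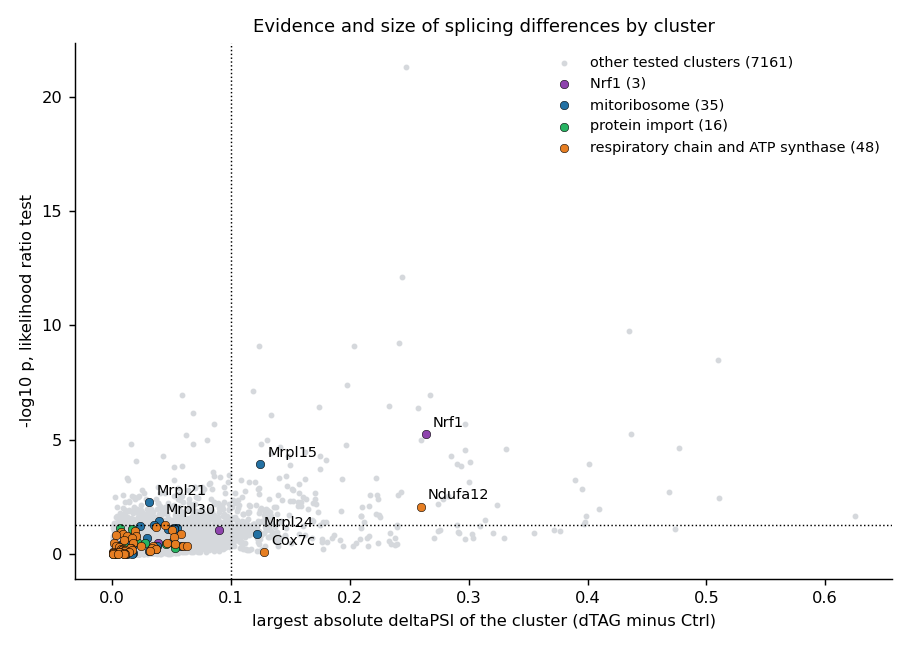
Each point is a tested cluster, placed by its largest absolute deltaPSI (x axis, a fraction) and by -log10 of its likelihood ratio p (y axis). The dotted lines mark 0.1 and a p of 0.05, members are coloured by function, and grey points are the other 7161 clusters. Nrf1 and Mrpl15 lie above the line at a p of 0.05 and past 0.1, while Mrpl24 and Cox7c lie past 0.1 but below the p line.

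In Nrf1, a single donor at the end of an internal coding exon was joined to any of 4 acceptors downstream, which lead to different annotated coding sequences. The sequences of these sites, 30 bases of the GRCm38 (mm10) reference on the transcript strand, are shown because the choice among them carries the largest member difference. Capitals mark the first 2 bases of the intron at the donor and its last 2 bases at each acceptor. The reference is C57BL/6J sequence, while the cells are 129S x Cast hybrids.
Nrf1 donor, chr6:30126350-30126379, + strand: gatgctaatgGTaagagatcatgaatattt
Nrf1 nearest acceptor, chr6:30129161-30129190, + strand: accatcctcttctctgctAGgcctcggatc
Nrf1 second acceptor, chr6:30140196-30140225, + strand: cagttctatgttcttgtcAGgcctctttat
Nrf1, the third acceptor, chr6:30144561-30144590, + strand: agagtactttctcactgcAGgcccagatgg
Nrf1 farthest acceptor, chr6:30151494-30151523, + strand: gtcttgctttgtctctccAGgcctggtcca

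The second acceptor lost share in dTAG cells and the other 3 gained it. Its intron (chr6:30126359-30140216 as deposited, where both positions are the flanking exon bases, 13856 nt of intron) had a PSI of 0.246 in dTAG and 0.509 in Ctrl, a deltaPSI of -0.264. PSI of the nearest acceptor (chr6:30126359-30129181, 2821 nt) was 0.226 in dTAG and 0.111 in Ctrl. The third acceptor (chr6:30126359-30144581, 18221 nt) stood at 0.133 in dTAG and 0.0976 in Ctrl. The farthest (chr6:30126359-30151514, 25154 nt) had 0.396 in dTAG and 0.282 in Ctrl, and so held the highest share in dTAG, where in Ctrl the second acceptor did. Together the other 3 acceptors took 0.754 of the cluster in dTAG and 0.491 in Ctrl. The chi-square test of the likelihood ratio gave p = 5.43e-06 and an adjusted p of 0.00198, rank 19 of all tested clusters, and the cluster ranked 45 by size of deltaPSI. The intron with the highest PSI differed between groups in 6 member clusters, 5.88% against 4.68% of all, and Nrf1 was the only such member with p of at most 0.05.

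**Figure D2:**
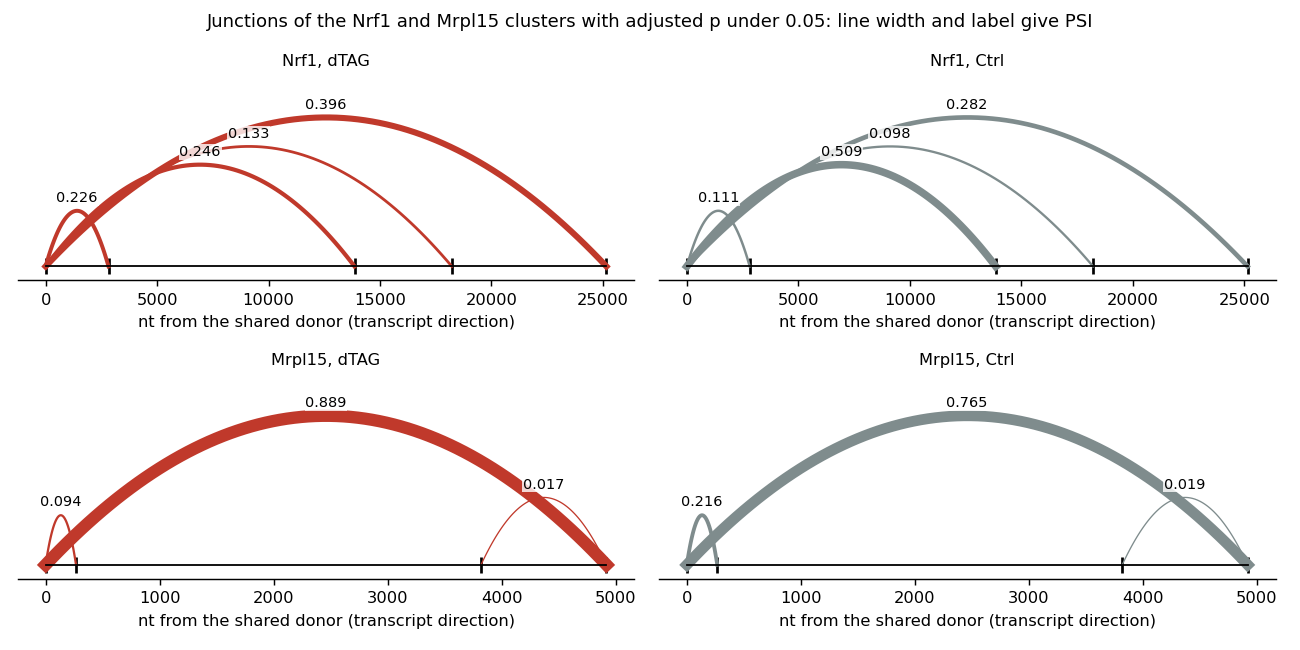
Arcs are the introns of the Nrf1 (top) and Mrpl15 (bottom) clusters, dTAG left and Ctrl right, by distance in nt from the shared donor in the direction of transcription. Arcs are thicker at higher PSI, and the number on each arc is its PSI. The 13856-nt Nrf1 intron is at 0.246 in dTAG and 0.509 in Ctrl.

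All 4 introns belong to annotated protein-coding transcripts of GENCODE vM21. The nearest acceptor opens a last exon that holds 209 nt of coding sequence, in transcripts with 1557 or 1593 coding nt. The third opens a last exon with 254 coding nt, in the 2 transcripts marked principal, of 1602 coding nt. The farthest opens a last exon with 161 coding nt, in transcripts of 1509. The second acceptor opens a 56-nt exon that is spliced on to the farthest last exon in a transcript of 1422 coding nt, or runs as a last exon of 689 nt in a transcript model that is annotated only in part. The cluster holds no intron that leaves the 56-nt exon. By annotation alone, the acceptor with lower share in dTAG leads to the shortest full-length coding sequence of the 4 choices. Which of its 2 annotated forms the reads came from was not tested, so the coding sequence of that form is unknown.

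Nrf1 had 2 other tested clusters, near its start codon, and neither passed. A 36-nt exon inside the coding sequence (chr6:30090269-30090304) was skipped with a PSI of 0.689 in dTAG and 0.599 in Ctrl (deltaPSI 0.09, chi-square p = 0.0901, adjusted p = 0.822). The introns on its 2 sides had 0.138 and 0.173 in dTAG, against 0.190 and 0.211 in Ctrl. Just before the start codon, an acceptor that adds 3 nt stood at 0.628 in dTAG and 0.590 in Ctrl (chi-square p = 0.321). With 3 clusters, Nrf1 had a median largest deltaPSI of 0.09, the highest of the 10 groups.

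MRPL15 is a protein of the large mitoribosomal subunit, and its gene (chromosome 1, minus strand) had the second cluster with an adjusted p under 0.05. From the donor of an exon in the middle of the gene, splicing ran either to the next exon of the full-length transcripts, across 4919 nt, or to an acceptor only 266 nt away that opens an alternative last exon. The 3 sites are shown because the choice between the 2 acceptors decides which end the transcript has. Capitals are as above.
Mrpl15 donor, chr1:4782548-4782577, - strand: ggttgaagagGTaactctagattggatttt
Mrpl15 near acceptor, chr1:4782292-4782321, - strand: cttgcacctcttcacttcAGgtgcacactt
Mrpl15 far acceptor, chr1:4777639-4777668, - strand: ttttttttttttttttacAGggtgctgata

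The far acceptor gained share in dTAG cells. Its intron (chr1:4777648-4782568) had a PSI of 0.889 in dTAG and 0.765 in Ctrl. The intron to the near acceptor (chr1:4782301-4782568) had 0.0937 in dTAG and 0.216 in Ctrl, so the short ending fell by 0.122 in PSI. An unannotated intron to the far acceptor (chr1:4777648-4778748) stayed low, at 0.0170 in dTAG and 0.0191 in Ctrl. The chi-square test gave p = 1.16e-04 and an adjusted p of 0.0194, which under the Benjamini-Yekutieli and Holm adjustments became 0.184 and 0.836, no longer under 0.05. The short ending belongs to a transcript of 504 coding nt, 78 of them in its last exon of 1081 nt, and the coding transcripts through the far acceptor have 612 or 885.

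As a description of the sites, each was scored by summing log2 of its base shares over equal shares, with the shares taken from the 13986 donors and 13536 acceptors of all tested introns. The far Mrpl15 acceptor, preceded by an unbroken run of T, scored 21.40 and the near acceptor 10.03. The 4 Nrf1 acceptors scored 8.05, 8.19, 7.74 and 11.56 in order of distance. Scores of acceptors that gained share in dTAG thus lay both above and below those of the acceptors that lost it.

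The 2 other Mrpl15 clusters did not pass. The choice between 2 last exons of the longer transcripts had the farther acceptor (chr1:4774516-4777525, 612 coding nt) at 0.0623 in dTAG and 0.0389 in Ctrl (chi-square p = 0.0599, adjusted p = 0.752). The introns beside its 155-nt internal exon differed by at most 0.0150 (chi-square p = 0.648).

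**Figure D3:**
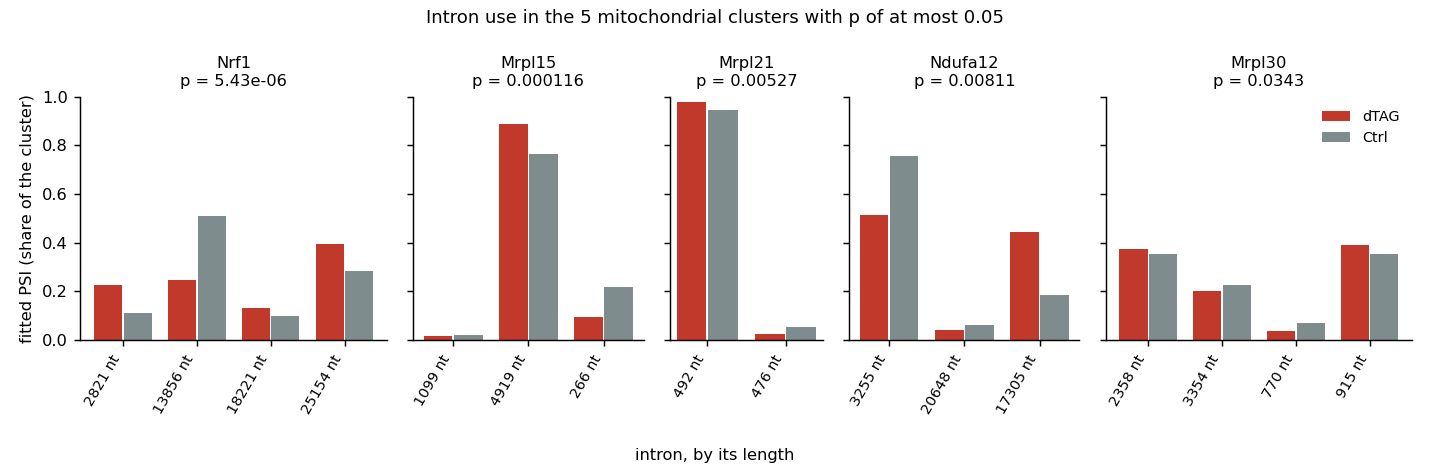
Bars give fitted PSI (y axis, a fraction of the cluster) of each intron, named by its length, in the 5 member clusters with p of at most 0.05, dTAG left of Ctrl in each pair. PSI values have no replicate error. The Ndufa12 bars at 3255 nt and 17305 nt lean opposite ways, with 0.514 and 0.445 in dTAG against 0.755 and 0.185 in Ctrl.

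Mrpl21 and Mrpl30, both of the large subunit, reached p of at most 0.05 without passing after adjustment. In Mrpl21 (chromosome 19) the end of an early coding exon has 2 donors 16 nt apart. The downstream donor, annotated only in a transcript marked for nonsense-mediated decay, the pathway that removes transcripts with early stops, had a PSI of 0.0234 in dTAG and 0.0543 in Ctrl (chi-square p = 0.00527, adjusted p = 0.272). The coding donor had 0.977 in dTAG and 0.946 in Ctrl. The window below shows the stretch that only the longer exon holds in capitals. The annotated stop codon of the decay transcript, TAA at chr19:3284819-3284821, lies in that stretch.
Mrpl21 donor pair, chr19:3284811-3284840, + strand: cacaaggGTAAAAATATCAAAATgtgggtt

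In Mrpl30 (chromosome 1) all 4 introns lie before the start codon of the full-length transcripts. An alternative first exon was joined to an 81-nt second exon with a PSI of 0.0348 in dTAG and 0.0704 in Ctrl (chr1:37892172-37892943). The intron leaving that 81-nt exon had 0.392 in dTAG and 0.353 in Ctrl, and skipping of it had 0.201 in dTAG and 0.225 in Ctrl (chi-square p = 0.0343, adjusted p = 0.643).

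Of the 22 clusters from 18 Mrpl genes, 3 had p of at most 0.05, where 6.84% of all tested clusters did. Their median largest deltaPSI was 0.0204. Mrpl24 had a larger shift than most without passing. Of its 4 introns ahead of the start codon, the one from the most downstream donor (chr3:87919828-87921817) stood at 0.605 in dTAG and 0.483 in Ctrl (chi-square p = 0.130, adjusted p = 0.850). Mrpl55 had 0.525 in dTAG and 0.468 in Ctrl for its last intron (chi-square p = 0.439). The members Mrpl10 and Mrpl49, picked after their values were seen, had coding exons of 170 nt and 151 nt whose skipping leaned opposite ways. Skipping of the Mrpl10 exon, an unannotated junction, had 0.0272 in dTAG and 0.0651 in Ctrl (chi-square p = 0.0777). Skipping of the Mrpl49 exon, an annotated junction, had 0.0742 in dTAG and 0.0397 in Ctrl (chi-square p = 0.0781).

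The small subunit had 13 clusters from 11 Mrps genes, and 0 had p of at most 0.05 (6.84% of all tested clusters did). The gene groups were not tested against each other. The smallest p was that of Mrps36 (0.0502, adjusted 0.729), whose protein is also known as a part of the alpha-ketoglutarate dehydrogenase complex. Its 2 acceptors lie 6 nt apart in coding sequence, and the downstream one, which leaves out 6 coding nt, had a PSI of 0.0904 in dTAG and 0.0557 in Ctrl. Mrps11, added after its values were seen because it mirrors Mrpl21, has 2 donors 6 nt apart. The downstream donor, annotated in a decay transcript whose stop codon TGA (chr7:78783682-78783684) falls in the 6 extra bases and in no coding one, had 0.136 in dTAG and 0.0811 in Ctrl (chi-square p = 0.0687, adjusted p = 0.779). The decay form thus had a higher PSI in dTAG for Mrps11, and a lower one for Mrpl21. Capitals again mark the bases that only the longer exon holds.
Mrps36 acceptor pair, chr13:100739184-100739213, - strand: ttttcatttgagCCTCAGaagctttggggt
Mrps11 donor pair, chr7:78783669-78783698, + strand: aagtcgcttcagGTGAGGgtaagtggatgc

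Complex I, the NADH dehydrogenase at the entry of the chain, had 22 clusters from 21 genes. Of these, 1 had p of at most 0.05 (6.84% of all tested clusters did). In Ndufa12, an accessory subunit of complex I, the introns on the 2 sides of an 88-nt coding exon (chr10:94203288-94203375) leaned opposite ways. The upstream intron (3255 nt) had a PSI of 0.514 in dTAG and 0.755 in Ctrl. The downstream intron (17305 nt) had 0.445 in dTAG and 0.185 in Ctrl. The junction that skips the exon, not annotated, had 0.0409 in dTAG and 0.0599 in Ctrl. In the 2 annotated coding transcripts that keep the exon, both flanking introns are removed. The upstream intron is also annotated in a decay transcript and in a model with a retained intron, neither of which has the downstream intron. Neither intron alone thus follows exon use, and which forms the reads came from was not tested. The cluster passed only before adjustment (chi-square p = 0.00811, adjusted p = 0.335). Its deltaPSI of 0.260 was the second largest among the members. The outer edges of the exon are shown with the intron ends in capitals.
Ndufa12 acceptor of the 88-nt exon, chr10:94203268-94203297, + strand: ttctccctcctcccactcAGgccgccaccg
Ndufa12 donor of the 88-nt exon, chr10:94203366-94203395, + strand: ctcctgagtgGTaagcgaagtcaacggggt

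The other complex I clusters were smaller or further from the threshold. Ndufa7, an accessory subunit, had the second smallest p of the group (0.0527, adjusted 0.735). The intron after its 50-nt second exon had 0.411 in dTAG and 0.455 in Ctrl. Its skipping junction, annotated only in a decay transcript, had 0.0333 in dTAG and 0.0236 in Ctrl. In Ndufa10 an unannotated donor inside the first intron had 0.143 in dTAG and 0.0853 in Ctrl (chi-square p = 0.129). Timmdc1, the complex I assembly factor, shares its cluster with the neighbouring gene Poglut1. The leading intron, annotated only in Poglut1, had 0.621 in dTAG and 0.558 in Ctrl, and the first intron of Timmdc1 had 0.313 in dTAG and 0.337 in Ctrl (chi-square p = 0.439).

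Complexes II and III gave 5 clusters and 0 with p of at most 0.05 (6.84% of all tested clusters). In Sdhaf2, a factor that helps to attach the flavin of succinate dehydrogenase, the donor found in decay but no protein-coding transcripts had 0.179 in dTAG and 0.231 in Ctrl (chi-square p = 0.173). Uqcr10, a small subunit of complex III, had its coding intron at 0.791 in dTAG and 0.777 in Ctrl (chi-square p = 0.752). Uqcrh, the hinge protein of complex III, had the intron of a noncoding transcript at 0.0109 in dTAG and 0.0114 in Ctrl (chi-square p = 0.903).

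Complex IV (cytochrome c oxidase) gave 11 clusters from 8 genes, again 0 with p of at most 0.05 (6.84% of all tested clusters). Its smallest p was 0.110, in Cox6c, whose leading intron had only 0.00757 in dTAG and 0.0152 in Ctrl. Cox7c, another subunit, had the third largest deltaPSI of all members and 1 of the larger p-values. The intron of its principal transcript (chr13:86045869-86046601) stood at 0.712 in dTAG and 0.584 in Ctrl (chi-square p = 0.808, adjusted p = 1), so a shift in fitted PSI about as large as that of Mrpl15 did not pass here. In Cox20, an assembly factor, the last intron had 0.452 in dTAG and 0.511 in Ctrl and the intron before it 0.493 in dTAG and 0.447 in Ctrl (chi-square p = 0.429). The 2 clusters of Cox16 carry names of overlapping genes as well, and their p-values were 0.365 and 0.566.

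The 10 clusters of 9 ATP synthase genes ranged in their largest deltaPSI between 0.00323 and 0.0364. The lowest p was 0.0640, in Atp5d, which codes for the delta subunit of ATP synthase. Skipping of its 89-nt coding exon (chr10:80145219-80145307) had 0.024 in dTAG and 0.00730 in Ctrl, and the intron before that exon 0.498 in dTAG and 0.535 in Ctrl (adjusted chi-square p of 0.767).

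Import had a median largest deltaPSI of 0.00824, against 0.0174 for the mitoribosome and 0.0132 for the respiratory chain, as a description with no test. The outer membrane had 10 clusters from 7 Tomm genes, among them the channel Tomm40 and the receptors Tomm20, Tomm22 and Tomm70a, and no Tomm intron differed in PSI by more than 0.0102. Tomm70a had the smallest p (0.0734), for an unannotated donor with 0.00587 in dTAG and 0.0125 in Ctrl. The inner membrane had 6 clusters from 6 Timm genes with a median largest deltaPSI of 0.0241. In Timm13, a small chaperone of the intermembrane space, the donor that makes the exon 45 nt longer had 0.972 in dTAG and 0.955 in Ctrl (chi-square p = 0.0783, adjusted p = 0.799). Timm22, the core of the carrier translocase, had 0.743 in dTAG and 0.690 in Ctrl for its leading intron (chi-square p = 0.499).

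**Figure D4:**
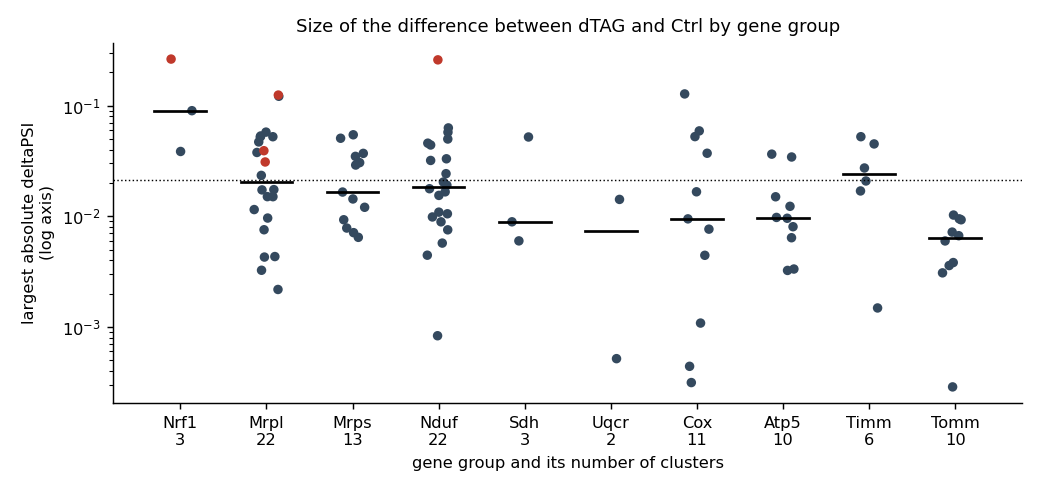
Points are member clusters by gene group (x axis, with the number of clusters) and by largest absolute deltaPSI (y axis, log scale). Red points have p of at most 0.05, black bars are group medians and the dotted line is the median of all tested clusters, 0.0214. Tomm clusters all lie at or below 0.0102, and the Nrf1 median is 0.09.

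Among the members, 25 clusters chose between 2 sites at most 30 nt apart, 12 pairs of acceptors and 13 pairs of donors. Such near pairs made up 50% of the member clusters with just 2 acceptors, against 52.5% of all such clusters. With just 2 donors the share was 41.9%, against 28.3% of all. Of the 25 member pairs, 1, Mrpl21, had p of at most 0.05, where 6.84% of all tested clusters did. The median absolute deltaPSI of these pairs was 0.0109 and the largest 0.0545, in Mrps11. The site that makes the longer exon had the higher PSI in dTAG in 15 pairs and in Ctrl in 10. In 8 of the 12 acceptor pairs and 3 of the 13 donor pairs the distance was a multiple of 3. This was not counted over the near pairs of all tested clusters. The windows below show 3 kinds: acceptors 3 nt apart in Nrf1, donors 10 nt apart in Mrpl28, and donors 4 nt apart in Ndufb2, with the bases held only by the longer exon in capitals.
Nrf1 acceptor pair, chr6:30089899-30089928, + strand: cctttttttctagCAGtagatcttcatgga
Mrpl28 donor pair, chr17:26124699-26124728, + strand: tattctcaagGCAAGCAGGGgttagtgcac
Ndufb2 donor pair, chr6:39598349-39598378, + strand: actctctggacgaGTAGgtgtgccctaagt

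In Mrpl28, of the large subunit, the upstream donor starts its intron with GC, 1 of only 3 such introns among the members, while 267 start with GT. This donor had a PSI of 0.941 in dTAG and 0.923 in Ctrl, and the unannotated GT donor 10 nt further on had 0.0594 in dTAG and 0.0768 in Ctrl (chi-square p = 0.392). Ndufb2, a complex I subunit, split its use nearly evenly, with the longer exon at 0.437 in dTAG and 0.437 in Ctrl (chi-square p = 0.983).

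**Figure D5:**
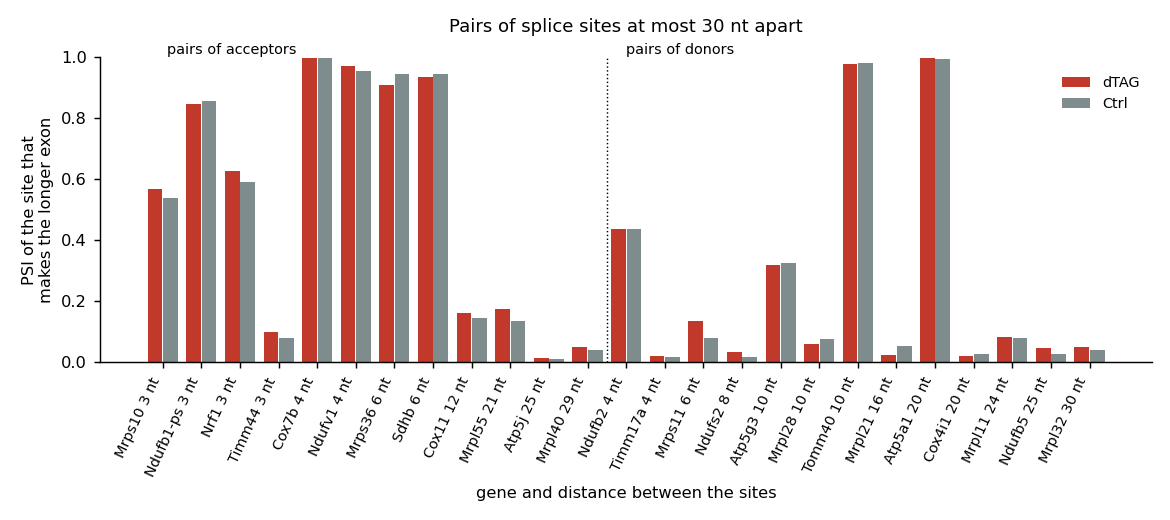
Bars give PSI (y axis, a fraction) of the site that makes the longer exon, for the 25 pairs of sites at most 30 nt apart, dTAG left of Ctrl. Acceptor pairs are left of the dotted line and donor pairs right, each labelled with the gene and the distance between its sites. Use of the minor site differs widely between genes, and the groups lie close together in each gene, at most 0.0545 apart.

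Across the members, 33 clusters were alternative donors only, 27 alternative acceptors only, 29 had the 3 introns of a single skipped stretch and 13 were of other form. The skipped stretch had a length divisible by 3 in 5 of the 29 (17.2%), against 44.0% of 2411 such clusters in the whole table. Among clusters with just 2 donors this held for 14 of 31 (45.2%, against 37.3% of all), and with just 2 acceptors for 15 of 24 (62.5%, against 52.7%). In 7 of the 29 the stretch is not 1 annotated exon, among them stretches of 586 nt (Mrpl55), 3554 nt (Mrpl15), 4441 nt (Timmdc1) and 17270 nt (Cox16). Over the 22 annotated exons alone the length was divisible by 3 in 5 (22.7%), against 46.1% of 2074 in the whole table. These shares are descriptions with no test.

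Of the 270 member introns, 187 belong to a protein-coding transcript, 14 to decay but no protein-coding transcripts, 20 only to other noncoding models and 49 to none, 18.1% against 25.3% of all introns. The summed PSI of the protein-coding introns of a cluster was higher in dTAG in 29 clusters, higher in Ctrl in 39 and equal in 34, against 2254, 2606 and 2403 of all tested clusters. Of the 14 decay-only introns, 9 had a higher PSI in dTAG and 5 in Ctrl, with a median deltaPSI of 8.23e-04, against 544 and 445 of all decay-only introns. All 9 introns that differed by 0.1 or more, 6 with a higher and 3 with a lower PSI in dTAG, were in protein-coding transcripts, as were 64.9% of the 575 such introns in the whole table (186 higher and 187 lower in dTAG). The 9 introns lie in only 5 clusters, and introns of the same cluster share a total PSI, so they are not independent.

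The letters GGACT, a form of the sequence in which METTL3 methylates the A, were searched on the transcript strand only, within 100 nt on either side of each splice site. They occurred at 38 of 189 member donors (against 2649 of 13988 donors in all) and at 20 of 181 member acceptors (against 2173 of 13545). No splice site of the 5 clusters with p of at most 0.05 had them in this window. These sites are few, and other forms of the sequence, wider windows and m6A positions were not examined.

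Mitochondrial genes with other names were read from 6 further lists, of translation factors, mitoribosome assembly, mitochondrial transcription, nuclear regulators, import partners and respiratory chain assembly. Of 103 listed genes, 37 had a tested cluster, 59 clusters in all. An adjusted p under 0.05 was reached by 0 of them, and p of at most 0.05 by 6 genes, 16.2% against the 11.2% of all genes given above. Of these, 3 are mitoribosome proteins or assembly factors. Rbfa, a factor for small subunit maturation, had its leading donor at 0.0965 in dTAG and 0.0213 in Ctrl (chi-square p = 0.00109, adjusted p = 0.110). Ptcd3 and Dap3, both proteins of the small subunit, had adjusted p-values of 0.437 and 0.682. The other 3 were Foxred1 (complex I assembly), Ttc19 (complex III assembly) and Myc, with adjusted p-values of 0.392, 0.642 and 0.700.

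The tables hold no expression levels, so cell type could be read only from which genes had a tested cluster. That takes introns that share a splice site as well as enough split reads, so a gene without one may still be expressed. Clusters were tested in 10 of 14 stem cell markers, among them Nanog, Klf4, Esrrb and Zfp42, but not in Pou5f1, Sox2, Lin28a or Utf1. Of 10 fibroblast markers, 1 had tested clusters, Fn1 (smallest chi-square p = 0.0253, adjusted p = 0.582, largest change 0.0105 in that cluster). The part of feeder cells in the differences above was not tested.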

How the data were processed

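The authors aligned 4sU-seq reads to mm10 with STAR 2.5.2b, kept uniquely mapped reads, formed intron clusters with LeafCutter and tested dTAG against Ctrl with both clones pooled. Per the file headers they deposited, for each cluster, a log-likelihood ratio score with its degrees of freedom, a p-value and an adjusted p-value. For each intron they deposited a fitted PSI per condition as a fraction, the deltaPSI score, and a fitted effect on the natural log scale, of which only the sign was used.

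Here p was recomputed as the chi-square tail of 2 times the score (largest difference from the deposited p 7.63e-15) and adjusted over 7263 clusters. This step was also run on scores simulated from chi-square distributions. That checks the calculation only, and not whether the deposited p-values are calibrated for these samples. Introns were matched to GENCODE vM21, and all 270 had GT-AG or GC-AG ends in GRCm38. The site scores, motif counts and coding lengths come from these references. Python 3.11.15, numpy 2.4.6, scipy 1.17.1, pandas 2.3.3, pysam 0.24.0 and matplotlib 3.10.9 were used.

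Members and lists were chosen with earlier results of these data known. Named were all member clusters with p of at most 0.05, the smallest p in each of 10 groups, the 10 largest deltaPSI and the 3 clusters just past 0.05. Other genes were named after their values were seen. Thresholds, adjustments, the set of clusters and the PSI denominator were varied. Reads and depth were not analysed here. The labels do not say that replicates were separate cultures, so p-values measure only the spread between these samples, which may be technical.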

Additional observations from a re-analysis of the deposited data

How the results depend on the processing

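The count of 2 member clusters with an adjusted p under 0.05 (51 of all tested clusters) became 1 under Benjamini-Yekutieli (29 of all) and 1 under Holm adjustment (21 of all), where Nrf1 passed (0.0188 and 0.0394) and Mrpl15 did not (0.184 and 0.836). It was 2 at a threshold of 0.2 (115 of all), and 2 genes passed when p was corrected per gene (55 of all genes). The count of 5 at p of at most 0.05 became 3 of 58 (5.17%, against 236 of 3340 or 7.07% of all) where every intron had to be annotated, since fewer clusters then enter. It was 4 at p of at most 0.01 (194 of all), and 18 at p under 0.1 (862 of all), a threshold added after the data were seen. The count of 5 at a deltaPSI of at least 0.1 became 18 (17.6%, against 19.8% of all tested clusters) at 0.05. Rescaling PSI over annotated introns kept the direction in the named clusters where it could be computed. It gave no value for Tomm70a and Ndufa10, each with 1 annotated intron, and took the deltaPSI of Timmdc1 to 0.0413, against 0.0629 as reported. The sign of the fitted effect equalled that of deltaPSI for each named leading intron, and for 241 of 270 member introns. No paired analysis was possible because the tables hold no value per sample. For the same reason no replicate could be left out, the clones could not be compared, and the depth behind a PSI is unknown, so a small p may rest on few reads and a large p may hide a difference.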

Other observations

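Introns that the annotation lacks made up 49 of the 270 member introns. Their median PSI was 0.0283 in dTAG and 0.0308 in Ctrl, and 30 had the higher PSI in dTAG and 19 in Ctrl. The largest shares were in Mrps36 (chr13:100741231-100744731, 0.195 in dTAG and 0.178 in Ctrl), Cox11, an assembly factor of complex IV (0.163 in dTAG and 0.146 in Ctrl), and Mrpl39 (0.154 in dTAG and 0.208 in Ctrl). The p-values of these clusters were 0.184, 0.668 and 0.397. The genes were picked for their shares after the values were seen.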
